A study of Mus musculus with 12 samples.

Results

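The genes described here encode the mitochondrial protein import machinery and the coiled-coil-helix-coiled-coil-helix (CHCHD) proteins. They were chosen by name, as every protein-coding mouse gene in the count files whose symbol starts with Timm, Tomm or Chchd, together with Romo1. The rule found 35 of the 29879 genes counted. Of these, 31 passed the expression filter and were tested. The other 4 (Timm23, Timm8a1, Timm8a2 and Tomm20l) had summed counts of 2 to 39 over the 12 libraries and were not tested.

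The samples were 4 RNA preparations of cortex from SNAP25 BacTRAP mice aged 21 postnatal days, with 3 libraries each. In such mice a bacterial artificial chromosome drives a fluorescently tagged ribosomal protein from the control regions of the neuronal gene Snap25, so the ribosomes of expressing cells can be pulled down with the mRNA they carry. WCH was the starting cortex homogenate and TRAP the tagged ribosomes pulled down from it. SNF was the SN band of a sucrose and percoll gradient with no pull-down, and SynapTRAP the tagged ribosomes pulled down from that band. All 4 preparations carried the same transgene, and no wild-type or untagged library was analysed here. The labels do not say that the replicates came from separate animals, so p-values measure the spread between these samples, which may be technical. In bulk RNA, fewer cells of a type and less RNA per cell cannot be told apart.

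Nearly all mitochondrial proteins are encoded in the nucleus, made in the cytosol and carried through the TOM complex of the outer membrane. TIM23 with its motor then moves proteins with a cleavable leader into the matrix, TIM22 inserts carriers into the inner membrane with the help of the small TIM chaperones, and the oxidoreductase CHCHD4 folds twin-cysteine proteins in the intermembrane space. CHCHD3 and CHCHD6 belong to the MICOS complex that shapes cristae, while mutations of CHCHD2 and CHCHD10 cause inherited neurodegenerative disease.

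Libraries held 4368881 to 14335089 gene counts, of which mitochondrially encoded genes took 33.6% to 50.9% in WCH, 0.930% to 5.43% in TRAP, 82.2% to 87.3% in SNF and 20.4% to 63.3% in SynapTRAP. SNF therefore had only 1819853 to 2111322 counts from the nuclear genome, and a tested import or CHCHD gene had 5 to 492 counts in an SNF library against 5 to 2559 over all libraries. Neuron marker genes summed to 9103 to 9817 CPM (counts scaled to library size with TMM) in WCH, 9381 to 14240 in TRAP, 7644 to 8473 in SNF and 4666 to 8416 in SynapTRAP. For astrocyte markers these ranges were 2293 to 2866, 614.9 to 1424, 14030 to 19210 and 9574 to 16330. For microglia markers they were 80.3 to 98.9, 24.6 to 52.2, 314.5 to 642.5 and 194 to 421.5. None of the 10 neuron, 10 astrocyte or 10 microglia markers was at 0 in every library of a group. A sum weighs the most abundant markers most. Of the 10 neuron markers, 5 were called higher and 0 lower in TRAP against WCH (edgeR, adjusted p under 0.05). In SNF against WCH 2 were higher and 2 lower, and in SynapTRAP against TRAP 1 was higher and 5 lower. In SynapTRAP against SNF 1 was higher and 0 lower, with a median log2 fold change of 0.29. The shares over all genes are given with each comparison below. TRAP replicate 2 stood apart in endothelial markers (33.3 CPM, with 4.62 and 5.48 in replicates 1 and 3), and TRAP replicate 3 in oligodendrocyte markers (7077 CPM, with 2195 and 512.5 in replicates 1 and 2). SynapTRAP replicate 3 stood apart in oligodendrocyte markers (21550 CPM, with 9926 and 8680 in replicates 1 and 2), neuron markers (4666, with 6743 and 8416) and microglia markers (194, with 421.5 and 418.9). It also had the highest mitochondrially encoded share of its group, 63.3% against 34.6% and 20.4%. Without it the 31 genes gave 19 lower calls in SynapTRAP against TRAP, 0 in SynapTRAP against SNF and 4 in the interaction described below, the same numbers as with it, while SNF against WCH, which borrows its spread, had 2 higher and 6 lower instead of 1 and 5. The part of these differences in the results below was not tested.

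Timm23, the channel-forming subunit of the complex that bears its name, was almost uncounted. Its level was 0.540, 0.405 and 0.642 CPM in WCH, 0.408, 0.272 and 0 in TRAP, 0.576, 0.266 and 0 in SNF, with 0.241, 0.0759 and 0.442 in SynapTRAP, or 39 counts in all. No library exceeded 0.642 CPM, and TRAP replicate 3 and SNF replicate 3 were at 0. Its gene lies on chromosome 14, 32180162 to 32201898, minus strand (GENCODE M21, GRCm38). The whole coding sequence of 627 bases is identical in 3 other genes, of which Gm10273, annotated as protein-coding (chromosome 10, 59395632 to 59396757, plus strand), was counted at 0 in every library. The pseudogene Gm16209 (chromosome 8, 107037480 to 107038106, minus strand) differs at 11 positions. The last 177 coding bases, from 451 to 627, are shown because a read that lies wholly in such a stretch fits several genes equally well, and capitals mark the 6 positions at which Timm23 and Gm16209 differ there.
Timm23: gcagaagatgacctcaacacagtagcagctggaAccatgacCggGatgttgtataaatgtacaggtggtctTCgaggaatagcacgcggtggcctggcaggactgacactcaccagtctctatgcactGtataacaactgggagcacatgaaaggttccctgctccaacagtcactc
Gm10273: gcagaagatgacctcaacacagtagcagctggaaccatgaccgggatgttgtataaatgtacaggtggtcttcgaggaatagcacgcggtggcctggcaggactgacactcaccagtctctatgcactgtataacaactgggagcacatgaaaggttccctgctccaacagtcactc
Gm16209: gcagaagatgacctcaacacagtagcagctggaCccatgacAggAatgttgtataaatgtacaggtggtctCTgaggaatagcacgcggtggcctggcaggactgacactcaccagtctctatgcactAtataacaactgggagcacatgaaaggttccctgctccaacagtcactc
Of all 50-base windows in the longest Timm23 transcript, 90.9% (1022 of 1124) also occur in another annotated gene. For Timm8a1, a small TIM chaperone, the share was 41.0%, its 291 coding bases are all present in the pseudogene Gm9797, and it had 38 counts in all. Next came Chchd2 with 18.5% and Tomm20 with 6.24%, while 31 genes had 5.05% or less. Timm8a2 and Tomm20l shared no window and had 2 and 4 counts. The sources used here do not state how reads that fit several places were handled, and the part of this in the low counts was not tested. Near-identical copies of at least 50 coding bases at 97% identity or more were found for 7 genes: Chchd2, Timm17a, Timm23, Timm8a1, Tomm20, Tomm22 and Tomm5. Their values are uncertain to that extent. Exons of 15 genes overlap another gene, most of all Tomm40l with Nr1i3 (3304 bases) and Tomm6 with 3 genes (1171 bases summed over them), and without a stated strand setting such reads cannot be assigned.

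**Figure D1:**
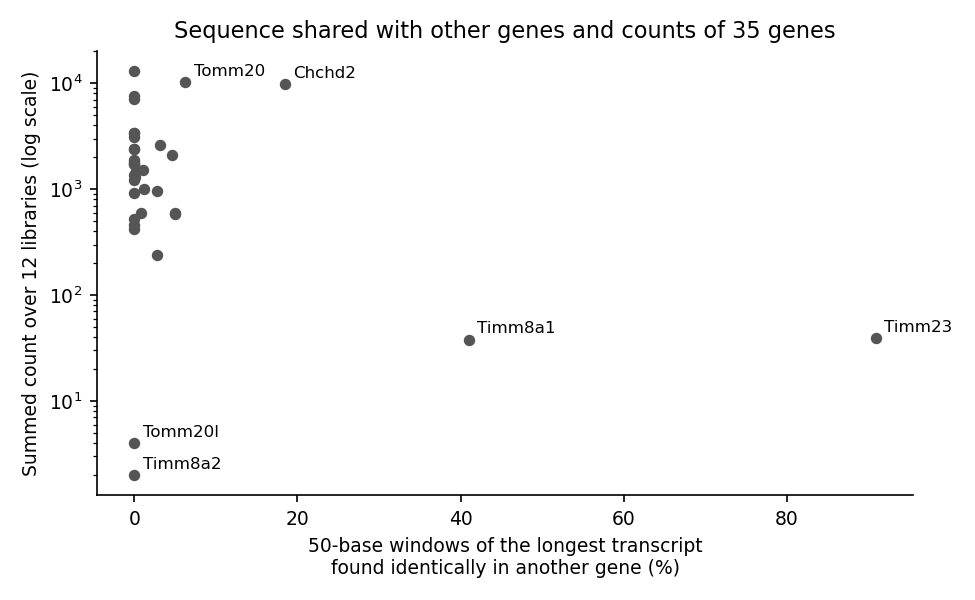
Share of 50-base windows found identically in another gene (x axis, percent) against the summed count over 12 libraries (y axis, log scale), with 1 point per gene for 35 genes. Timm23 (90.9%, 39 counts) and Timm8a1 (41.0%, 38 counts) combine a high share with few counts, whereas Timm8a2 and Tomm20l have few counts with no shared window.

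Upstream sequence was available in RefSeq (GRCm38.p6) for 30 of the 35 genes and for 16152 protein-coding genes in all, as windows of 300 bases, 250 before and 50 after the annotated start. The ETS core CCGGAAG, read on both strands, was present in 13 of 30 windows (43.3%) and in 12.4% of all windows. The NRF-1 core GCATGCGC was in 3.33% against 3.81%, the GC box GGGCGG in 40.0% against 48.7%, CCAAT in 33.3% against 38.7%, TATAAA in 3 of 30 against 12.5%, and the YY1 core AAGATGGCG in 3.33% against 2.07%. A match is a run of letters and not a shown binding site. Of the 13 genes with an ETS core, Chchd5, Romo1, Timm10 and Timm8b were called higher in TRAP. Chchd3, Timm10b, Timm29, Timmdc1, Tomm22, Tomm34 and Tomm70a were not called there, and Timm23 and Timm8a2 were not tested. The part of this motif in the results was not tested. The 250 bases before the start are printed, with ETS cores in capitals, for 4 genes called higher in TRAP, picked as examples of different numbers of this motif. The window of Timm8b (chr9:50603651-50603900, plus strand) holds 1 ETS core and that of Chchd5 (chr2:129129450-129129699, plus strand) holds 3. The windows of Timm13 (chr10:80900970-80901219, minus strand) and Chchd10 (chr10:75932880-75933129, plus strand) hold 0.
Timm8b: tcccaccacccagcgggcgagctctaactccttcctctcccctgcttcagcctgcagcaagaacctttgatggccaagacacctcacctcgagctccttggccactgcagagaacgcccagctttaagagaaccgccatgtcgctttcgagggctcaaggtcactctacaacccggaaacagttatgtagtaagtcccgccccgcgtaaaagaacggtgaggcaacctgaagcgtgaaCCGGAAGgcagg
Chchd5: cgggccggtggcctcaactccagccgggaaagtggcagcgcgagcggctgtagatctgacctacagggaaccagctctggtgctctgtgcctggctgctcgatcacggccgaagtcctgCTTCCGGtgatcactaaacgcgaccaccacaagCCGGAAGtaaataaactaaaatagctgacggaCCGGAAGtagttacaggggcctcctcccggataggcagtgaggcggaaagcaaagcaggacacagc
Timm13: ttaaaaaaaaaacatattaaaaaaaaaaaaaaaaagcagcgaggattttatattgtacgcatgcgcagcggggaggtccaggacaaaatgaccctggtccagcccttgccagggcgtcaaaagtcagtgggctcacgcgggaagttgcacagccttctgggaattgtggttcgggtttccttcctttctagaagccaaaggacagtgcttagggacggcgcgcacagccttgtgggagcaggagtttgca
Chchd10: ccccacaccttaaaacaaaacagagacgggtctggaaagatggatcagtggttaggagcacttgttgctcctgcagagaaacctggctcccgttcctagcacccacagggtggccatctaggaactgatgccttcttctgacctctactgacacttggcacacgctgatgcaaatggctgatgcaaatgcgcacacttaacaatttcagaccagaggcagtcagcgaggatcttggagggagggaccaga

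TRAP was compared with WCH to find mRNAs enriched on tagged ribosomes of the whole cortex. Of the 31 tested genes, 14 rose in TRAP, where 11.1% of all 13404 tested genes did, and 0 fell, where 10.9% of all genes did (edgeR quasi-likelihood test, adjusted p under 0.05). For the fall, 0 genes had an unadjusted p under 0.05 and DESeq2 called 0. The 14 were Romo1, Chchd10, Timm13, Chchd5, Timm8b, Timm50, Timm17b, Tomm6, Tomm7, Chchd6, Tomm40, Tomm5, Timm10 and Chchd2. In 17 genes all TRAP libraries lay above all WCH libraries, which held for 20.6% of all genes, and in 2 all lay below, which held for 22.5%. The median log2 fold change was 0.54, or 0.55 above the median of all genes. The number of calls was 6 without WCH replicate 2 and 8 without WCH replicate 3, where higher calls over all genes went from 1488 to 652 and 755. Of the 14, Chchd10, Chchd6, Romo1, Timm13 and Timm8b were called whichever of the 12 libraries was left out.

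SNF against WCH asks which mRNAs were more or less abundant in the gradient band. Tomm20 rose (1 of 31, against 20.6% of all genes) and 5 genes fell (Chchd4, Timm9, Timm10, Tomm34 and Tomm70a, against 16.5% of all genes), so both shares were at or under the background. The SNF libraries lay wholly above WCH for 3 genes, against 25.6% of all genes, and wholly below for 11, against 33.6%. With total gene counts as the scale, the median of all genes went from -0.25 to -2.60 and all 31 genes were called lower, Tomm20 included, as were 11441 of 13404 genes. The median of the 31 relative to all genes was 0.15, and it was -0.07 with DESeq2 and -0.01 without SNF replicate 2.

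SynapTRAP against SNF is the pull-down compared with its own input. It called 0 genes higher, where 2.29% of all genes were, and 0 lower, where 1.79% were. Unadjusted p in edgeR was under 0.05 for 0 higher and 2 lower genes (Timm10b and Timmdc1), and DESeq2 called 0 higher and 2 lower. The SynapTRAP libraries lay wholly above SNF for 2 genes, against 12.4% of all genes, and wholly below for 6, against 10%. With total gene counts as the scale, which moves the median of all genes from 0.03 to 1.98, 29 of 31 were called higher, as were 12171 of 13404 genes.

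SynapTRAP against TRAP compares tagged ribosomes of the band with those of the whole cortex. It called 0 of 31 genes higher, where 21.6% of all genes were, and 19 lower, where 18.1% were. For the rise, 0 genes had an unadjusted p under 0.05 and DESeq2 called 0. The median log2 fold change was -0.94, or -0.91 relative to all genes. SynapTRAP lay wholly above TRAP for 1 gene, against 21.4% of all genes, and wholly below for 19, against 21.4%. This comparison shares the TRAP libraries with TRAP against WCH, so genes high in TRAP appear in both. With the replicate number as a block, 21 genes were lower instead of 19. With only these 2 groups in the fit 15 were, and Timm44, Tomm34, Tomm70a and Chchd1 were not called (adjusted p = 0.0636, 0.0740, 0.0534 and 0.0660). Lower calls over all genes were 2432 of 13404 in the main fit, 2545 of 13404 with the block and 1458 of 12582 with only these 2 groups.

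**Figure D2:**
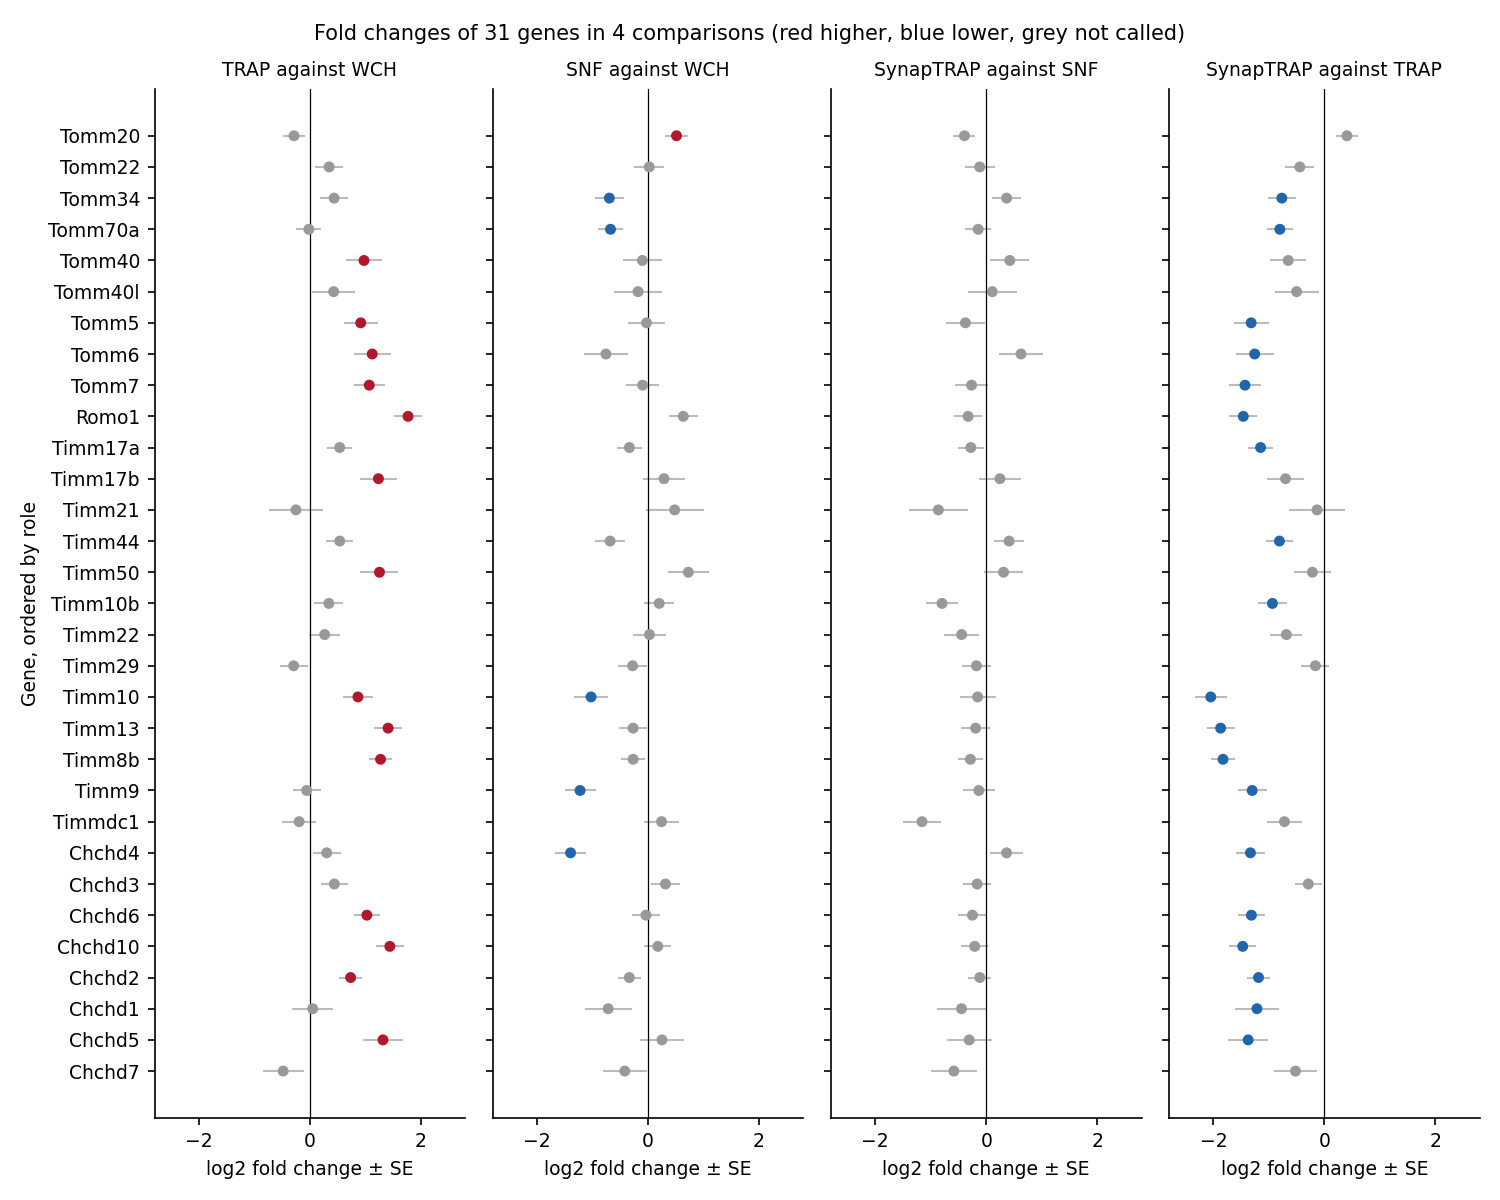
Log2 fold change with its standard error (x axis) of the 31 tested genes (y axis, ordered by role) in 4 comparisons, red for genes called higher, blue for genes called lower and grey for the rest. TRAP against WCH has 14 red and 0 blue points, SynapTRAP against SNF has only grey ones, and SynapTRAP against TRAP has 19 blue ones.

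Among the TOM receptors, which dock precursors at the outer membrane, none rose in TRAP (0 of 4 tested, against 11.1% of all genes). With 4 genes, 0 cannot be told apart from that share. Tomm20, the receptor for cleavable leaders, was at 80.5, 80.0 and 92.3 CPM in WCH, 66.5, 72.6 and 68.2 in TRAP, 125, 131 and 105 in SNF, with 90.9, 101 and 83.0 in SynapTRAP. All 3 SNF libraries lay above every other library, and all 3 TRAP libraries lay below every other one. In SNF it rose 1.43-fold over WCH (log2 0.51, SE 0.20, edgeR adjusted p = 0.0469), while its log2 fold change was -0.29 in TRAP (SE 0.20, adjusted p = 0.316) and 0.41 in SynapTRAP against TRAP. With total gene counts as the scale, these 3 values were -1.83, 0.31 and -0.53. The SNF call was lost without any 1 of WCH replicates 1, 2 and 3 and SNF replicates 1 and 2, and with no expression filter. Near-identical copies of this gene exist, as given above.

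Tomm70a, the receptor for carriers and other internal signals, averaged 69.3 ± 3.22 CPM in WCH, 68.4 ± 16.2 in TRAP, 43.4 ± 3.78 in SNF, with 39.1 ± 9.94 in SynapTRAP (SD, n = 3). It fell in SNF (log2 -0.68, SE 0.23, adjusted p = 0.0263) and was lower in SynapTRAP than in TRAP (log2 -0.80, SE 0.23, adjusted p = 0.00800), although SynapTRAP and TRAP libraries overlapped and the call was lost with only those 2 groups in the fit. Tomm34, a cytosolic cochaperone of import, averaged 27.8 ± 1.53, 37.6 ± 15.3, 17.1 ± 2.53 and 22.1 ± 0.863 CPM in the same order. It fell in SNF (log2 -0.70, adjusted p = 0.0396) and against TRAP in SynapTRAP (log2 -0.77, adjusted p = 0.0175), but the latter was -0.44 and not called without TRAP replicate 3, which held 54.7 CPM, and also not called with only those 2 groups in the fit. Both SNF calls were lost with DESeq2, with RLE scaling and in 9 of the 12 fits that left out 1 library (all but those without TRAP replicate 3, SynapTRAP replicate 2 and SynapTRAP replicate 3). Tomm22, the central receptor, averaged 16.3, 20.7, 16.6 and 15.3 CPM and was not called in any comparison.

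Of the TOM channel genes and small subunits, 4 of 5 rose in TRAP, against 11.1% of all genes. Tomm40, the channel itself, was at 16.0, 14.5 and 12.6 CPM in WCH, 27.3, 30.6 and 27.0 in TRAP, 14.4, 19.2 and 6.81 in SNF, with 29.5, 13.8 and 10.2 in SynapTRAP. TRAP lay above WCH and SNF in every library, but SynapTRAP replicate 1 reached the TRAP level. It rose 1.97-fold in TRAP (log2 0.98, SE 0.33, adjusted p = 0.0383). Between SynapTRAP and TRAP its log2 fold change was -0.65 (not called), or -0.76 with the replicate block (adjusted p = 0.0341, called).

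Tomm7, a small subunit that regulates assembly of the complex, was at 9.80, 9.39 and 11.3 CPM in WCH, 13.1, 28.4 and 22.6 in TRAP, 7.77, 10.9 and 9.73 in SNF, with 6.42, 8.12 and 9.29 in SynapTRAP. Every TRAP library lay above every other library, with TRAP replicate 1 nearest to them. It rose 2.10-fold in TRAP (log2 1.07, SE 0.28, adjusted p = 0.00880) and was 2.70-fold lower in SynapTRAP than in TRAP (log2 -1.43, SE 0.28, adjusted p = 0.00046). Tomm5 and Tomm6, the other small subunits, rose in TRAP as well (log2 0.92 and 1.12, adjusted p = 0.0361 and 0.0206) and were lower in SynapTRAP (log2 -1.32 and -1.26, adjusted p = 0.00231 and 0.00594). For Tomm6 the TRAP libraries were uneven at 8.84, 21.9 and 8.56 CPM. Without TRAP replicate 2 its log2 fold changes were 0.57 and -0.72, neither called. Tomm40l, a paralog of the channel, was at 1.33 to 5.98 CPM and was called in no comparison. In TRAP against WCH, each of these calls was lost in some fit that left out 1 library: Tomm40 without any 1 of the 6 WCH and TRAP libraries or SNF replicate 1, Tomm5 without any WCH library or TRAP replicates 1 or 2, Tomm6 without WCH replicates 2 or 3 or TRAP replicate 2, and Tomm7 without WCH replicate 2.

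In the TIM23 complex and its motor, 3 of 6 tested genes rose in TRAP, against 11.1% of all genes. Largest was the rise of Romo1, the small subunit also known as a modulator of reactive oxygen species. Romo1 was at 16.8, 10.5 and 15.0 CPM in WCH, 32.8, 49.3 and 62.0 in TRAP, 24.5, 20.2 and 20.9 in SNF, with 15.7, 17.6 and 19.0 in SynapTRAP. TRAP was above all other libraries, SNF lay between, and SynapTRAP overlapped WCH. It rose 3.41-fold in TRAP (log2 1.77, SE 0.25, adjusted p = 0.000137), the largest rise among the 31 genes, and was 2.76-fold lower in SynapTRAP than in TRAP (log2 -1.46, SE 0.25, adjusted p = 0.00012). In SNF its log2 fold change over WCH was 0.63 (adjusted p = 0.0583, not called). It was called higher with RLE scaling (0.76, adjusted p = 0.0278), DESeq2 (0.76, adjusted p = 0.0245) and only those 2 groups in the fit (0.76, adjusted p = 0.00637), and it was -1.73 with total gene counts as the scale.

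Timm50, the receptor of the complex, was at 5.94, 4.80 and 6.33 CPM in WCH, 9.11, 18.8 and 12.9 in TRAP, 12.7, 10.1 and 5.60 in SNF, with 12.9, 15.3 and 6.34 in SynapTRAP. It rose 2.39-fold in TRAP (log2 1.25, SE 0.34, adjusted p = 0.0120, not called without WCH replicate 2 or TRAP replicate 2), whereas SNF and SynapTRAP overlapped each other. In SNF against WCH its log2 fold change was 0.73 (adjusted p = 0.121). It was called higher with only those 2 groups in the fit, and it was -1.64 with total gene counts as the scale.

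The paralogs Timm17a and Timm17b, which form part of the TIM23 channel, were both highest in TRAP on average. Timm17a was at 17.5, 21.2 and 25.5 CPM in WCH, 32.2, 31.9 and 29.1 in TRAP, 19.9, 16.2 and 14.8 in SNF, with 14.9, 14.0 and 13.0 in SynapTRAP. Its TRAP libraries lay above all others, yet the rise over WCH missed the threshold (log2 0.54, SE 0.22, adjusted p = 0.0827), although DESeq2 and a fit of only those 2 groups called it, and in SynapTRAP it was 2.22-fold lower than in TRAP (log2 -1.15, adjusted p = 0.000403). Timm17b was at 3.94, 2.70 and 2.75 CPM in WCH, 8.56, 8.97 and 4.62 in TRAP, 4.89, 3.99 and 2.68 in SNF, with 4.81, 4.63 and 4.13 in SynapTRAP. It rose 2.36-fold in TRAP (log2 1.24, SE 0.34, adjusted p = 0.0123, not called without WCH replicate 2 or 3), and its TRAP replicate 3 fell within the SynapTRAP range (log2 -0.70 between them, adjusted p = 0.0992). Timm44, which tethers the motor, had log2 fold changes of 0.54 in TRAP (adjusted p = 0.119) and -0.68 in SNF (adjusted p = 0.0501) and was lower in SynapTRAP than in TRAP (-0.81, adjusted p = 0.0128). With only the 2 groups compared in the fit it was called higher in TRAP and was not called in SynapTRAP, and with scaling without mitochondrially encoded genes it was called lower in SNF. Timm21, at 1.18 to 4.87 CPM, was called in no comparison.

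None of the 3 TIM22 genes rose in TRAP, against 11.1% of all genes, a share that 3 genes cannot be told apart from. Timm10b, which holds the small chaperones at that complex, was at 7.70, 6.60 and 7.08 CPM in SynapTRAP and at 13.1, 14.7 and 13.3 in TRAP, a fall of 0.94 on the log2 scale (SE 0.27, adjusted p = 0.00800). Timm22, the channel, averaged 8.30, 9.99, 8.49 and 6.16 CPM in WCH, TRAP, SNF and SynapTRAP. Its log2 fold change in SynapTRAP against TRAP was -0.69 (adjusted p = 0.0636), or -0.70 with the replicate block (adjusted p = 0.0481, called). Timm29 was at 7.81 to 15.5 CPM and was called in no comparison. Timmdc1, a TIMM-like assembly factor of respiratory complex I, was at 5.47, 8.51 and 6.08 CPM in SNF and at 2.97, 2.81 and 3.24 in SynapTRAP. The SynapTRAP libraries lay below all SNF libraries, with a log2 fold change of -1.16 (SE 0.34, adjusted p = 0.0518, not called). With the replicate block the same comparison had an adjusted p of 0.0482, RLE scaling and DESeq2 called it lower as well, and with total gene counts as the scale it was 0.77.

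Among the small TIM chaperones of the intermembrane space, which escort hydrophobic precursors, 3 of 4 tested genes were higher in TRAP, against 11.1% of all genes. In SynapTRAP against TRAP, 4 of 4 were lower, against 18.1% of all genes. Timm8b was at 43.1, 40.2 and 58.2 CPM in WCH, 94.8, 132 and 115 in TRAP, 39.4, 37.5 and 40.4 in SNF, with 34.8, 31.04 and 30.4 in SynapTRAP. Timm13, its partner, was at 19.6, 18.4 and 21.9 CPM in WCH, 34.4, 72.0 and 53.1 in TRAP, 18.4, 17.0 and 14.3 in SNF, with 16.4, 13.6 and 13.4 in SynapTRAP. For both genes every TRAP library lay above every library of the other groups. Timm8b rose 2.42-fold in TRAP (log2 1.27, SE 0.21, adjusted p = 0.000458) and Timm13 rose 2.66-fold (log2 1.41, SE 0.25, adjusted p = 0.000627). In SynapTRAP they were 3.55-fold and 3.66-fold lower than in TRAP (log2 -1.83 and -1.87, adjusted p = 2.35e-06 and 9.53e-06).

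Timm9 and Timm10 build the other chaperone hexamer; Timm10 was called in TRAP and Timm9 was not, and the difference between them was not tested. Timm10 was at 11.9, 9.60 and 11.1 CPM in WCH, 16.9, 18.8 and 23.7 in TRAP, 5.18, 7.18 and 3.65 in SNF, with 6.26, 4.10 and 3.83 in SynapTRAP. Its WCH and TRAP libraries did not overlap, and both gradient groups lay below WCH. It rose 1.82-fold in TRAP (log2 0.87, SE 0.27, adjusted p = 0.0267, lost without any 1 WCH library or TRAP replicate 3) and fell 2.04-fold in SNF (log2 -1.03, SE 0.31, adjusted p = 0.0130, lost without WCH replicate 1 or SNF replicate 3). In SynapTRAP it was 4.14-fold lower than in TRAP (log2 -2.05, SE 0.29, adjusted p = 1.56e-05), the largest fall among the 31 genes. Timm9 was at 19.0, 21.6 and 20.3 CPM in WCH, 18.5, 21.6 and 18.5 in TRAP, 5.18, 8.51 and 12.2 in SNF, with 6.74, 8.65 and 8.40 in SynapTRAP. WCH and TRAP overlapped, and both gradient groups lay below them. It fell 2.34-fold in SNF against WCH (log2 -1.23, SE 0.28, adjusted p = 0.00159) and was 2.47-fold lower in SynapTRAP than in TRAP (log2 -1.30, adjusted p = 0.000564).

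**Figure D3:**
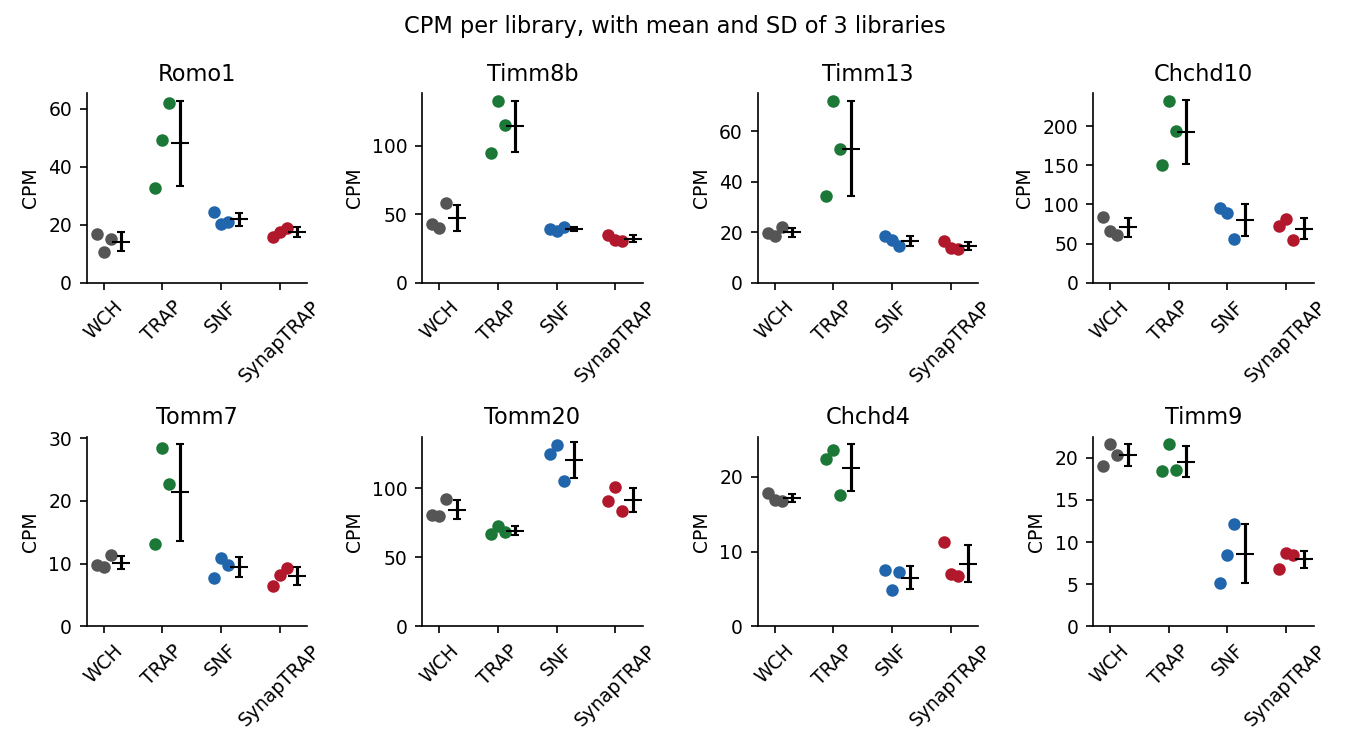
CPM of 8 genes (y axis, linear from 0) in the 3 libraries of each group (points), with the group mean and SD beside them. Romo1, Timm8b, Timm13, Chchd10 and Tomm7 have their highest 3 libraries in TRAP, Tomm20 has them in SNF, and Chchd4 and Timm9 are low in both gradient groups.

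Chchd4, which oxidises the cysteines of small imported proteins, was called lower in SNF, as was Timm9. It was at 17.8, 17.0 and 16.8 CPM in WCH, 22.4, 23.6 and 17.6 in TRAP, 7.48, 4.79 and 7.30 in SNF, with 11.2, 7.06 and 6.78 in SynapTRAP. All gradient libraries lay below all WCH and TRAP libraries, whereas WCH and TRAP overlapped (log2 0.30, adjusted p = 0.411). It fell 2.63-fold in SNF (log2 -1.40, SE 0.29, adjusted p = 0.000617), the largest fall among the 31 genes in that comparison, and was 2.52-fold lower in SynapTRAP than in TRAP (log2 -1.33, adjusted p = 0.000409). The SNF calls of Chchd4 and Timm9 held whichever library was left out.

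Of the MICOS genes Chchd3 and Chchd6, only Chchd6 was called. Chchd3 was at 11.3, 12.5 and 13.8 CPM in WCH, 16.7, 21.8 and 12.5 in TRAP, 15.2, 15.4 and 16.1 in SNF, with 12.6, 12.7 and 16.7 in SynapTRAP. Its groups overlapped except for SNF against WCH, and no comparison called it (TRAP against WCH: log2 0.44, adjusted p = 0.205). Chchd6 was at 17.7, 12.4 and 17.1 CPM in WCH, 28.9, 30.0 and 37.3 in TRAP, 16.7, 14.6 and 14.6 in SNF, with 15.8, 10.1 and 12.7 in SynapTRAP. Its TRAP libraries lay above all others, with a 2.04-fold rise over WCH (log2 1.03, SE 0.24, adjusted p = 0.00431) and a 2.49-fold lower level in SynapTRAP (log2 -1.32, SE 0.24, adjusted p = 0.000219).

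Chchd10 was at 84.5, 66.4 and 61.2 CPM in WCH, 151, 232 and 194 in TRAP, 95.2, 88.6 and 56.2 in SNF, with 72.0, 81.3 and 54.1 in SynapTRAP. Its TRAP libraries stood above all others, and the remaining groups overlapped. It rose 2.72-fold in TRAP (log2 1.44, SE 0.25, adjusted p = 0.000535) and was 2.78-fold lower in SynapTRAP than in TRAP (log2 -1.47, SE 0.25, adjusted p = 9.43e-05). Its paralog Chchd2 was at 76.3, 67.2 and 78.9 CPM in WCH, 109, 144 and 118 in TRAP, 63.9, 55.0 and 57.2 in SNF, with 50.4, 49.3 and 63.0 in SynapTRAP. TRAP was again above every other library, with a 1.67-fold rise (log2 0.74, SE 0.20, adjusted p = 0.0133, lost without WCH replicate 2) and a 2.28-fold lower level in SynapTRAP (log2 -1.19, SE 0.21, adjusted p = 0.000133).

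Of the remaining genes, Chchd5 was at 3.63, 3.45 and 2.84 CPM in WCH, 10.5, 7.97 and 6.34 in TRAP, 6.33, 3.46 and 2.19 in SNF, with 2.25, 3.57 and 3.83 in SynapTRAP. It rose 2.49-fold in TRAP (log2 1.32, SE 0.36, adjusted p = 0.0112, lost without WCH replicate 3), where its lowest library was just above the highest SNF library, and was 2.59-fold lower in SynapTRAP (log2 -1.38, adjusted p = 0.00470). Chchd1, a protein of the small mitochondrial ribosomal subunit, was lower in SynapTRAP than in TRAP (log2 -1.22, SE 0.39, adjusted p = 0.0176), but its TRAP libraries spread from 2.57 to 7.97 CPM and overlapped SynapTRAP at 1.33 to 2.81. That call was lost without TRAP replicate 2 or SynapTRAP replicate 3, and with only those 2 groups in the fit. Chchd7 was at 1.68 to 5.68 CPM and was called in no comparison.

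**Figure D4:**
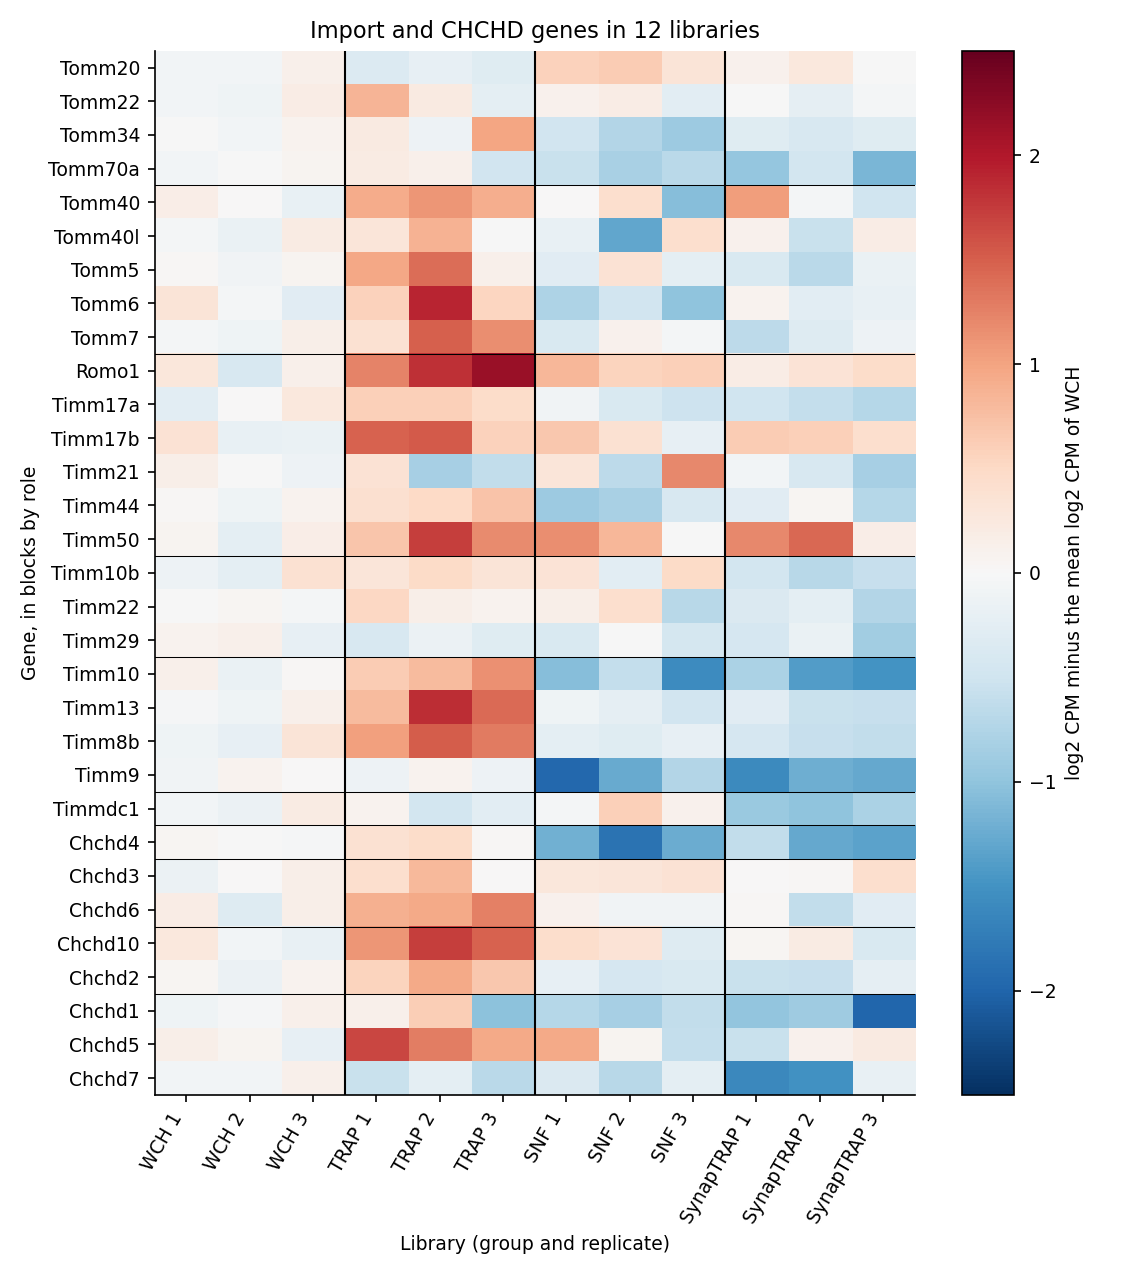
Log2 CPM of 31 genes (rows, in blocks by role) in 12 libraries (columns), each relative to the mean of WCH, with red above and blue below. TRAP columns are red for 14 genes called higher, and the SNF and SynapTRAP columns are blue for Chchd4, Timm9 and Timm10.

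Per kilobase of merged exons, Timm8b was the most abundant of the 31 genes in every group, with 91.1 CPM per kilobase in WCH, 220.2 in TRAP, 75.5 in SNF, with 61.9 in SynapTRAP. Chchd10 came next with 44.9, 122, 50.8 and 43.9. Timm21 and Tomm40l were among the lowest in every group, at 0.428 to 0.860 CPM per kilobase. Merged exons hold every annotated exon of a gene, so this order depends on the annotation. By CPM without division by length, Timm8b averaged 47.2 in WCH. Tomm20 (84.3), Chchd2 (74.2), Chchd10 (70.7) and Tomm70a (69.3) were above it there.

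The test of whether the pull-down effect differed between band and homogenate (SynapTRAP minus SNF, less TRAP minus WCH) called 0 genes higher, where 0.507% of all genes were, and 4 of 31 lower, where 0.358% were. These were Romo1 (log2 -2.10, SE 0.36, adjusted p = 0.0119), Chchd10 (-1.65, SE 0.35, adjusted p = 0.0313), Timm13 (-1.60, SE 0.36, adjusted p = 0.0356) and Timm8b (-1.56, SE 0.30, adjusted p = 0.0236). In each, TRAP exceeded WCH by at least 1.27 on the log2 scale and SynapTRAP did not exceed SNF (log2 -0.33, -0.21, -0.19 and -0.28 in the order given, none called). For the rise, 0 genes had an unadjusted p under 0.05 in edgeR and DESeq2 called 0. No gene of the 4 was called in every fit that left out 1 library: without WCH replicate 2 or without SNF replicate 1 none was. In both of those fits 0 of all genes were called in either direction. Over all fits that left out 1 library the log2 values were -1.92 to -2.43 for Romo1, -1.50 to -1.94 for Chchd10, -1.46 to -1.97 for Timm13 and -1.45 to -1.81 for Timm8b. Chchd10 was also lost without WCH replicate 3, TRAP replicate 2, SNF replicate 2 or SynapTRAP replicate 1. Timm13 was also lost without WCH replicates 1 or 3, TRAP replicate 2 or SNF replicate 2, and Timm8b without WCH replicate 1 or SNF replicate 2. With total gene counts as the scale, where the median of all genes moves from 0.07 to 1.46, 0 genes were lower and 6 of 31 were higher, while 6329 of 13404 genes were called higher.

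Of 20 further import genes (motor partners, processing peptidases, sorting factors), 1 rose in TRAP (Mipep, a peptidase, log2 0.88, adjusted p = 0.0204) and 1 fell (Mtx3, an outer membrane metaxin, log2 -1.01, adjusted p = 0.00415), with a list median 0.33 above all genes. Over all genes 11.1% rose and 10.9% fell, so both counts were under the background. In SNF against WCH 1 of the 20 rose and 3 fell (against 20.6% and 16.5% of all genes). In SynapTRAP against TRAP, 5 of the 20 fell (against 18.1% of all genes), among them Grpel1, a nucleotide exchange factor of the motor (log2 -1.39, adjusted p = 0.000184). In SynapTRAP against SNF only Hspa9, the motor chaperone, was called among the 20 (log2 0.92, adjusted p = 0.0384). That is 5.0% higher, against 2.29% of all genes. Of 7 further cristae genes 3 rose in TRAP (42.9%) and 0 changed in SNF, and 3 fell in SynapTRAP against TRAP (42.9%) (Minos1, a MICOS core subunit, log2 -1.23, adjusted p = 0.000275). Of 13 further twin-cysteine proteins, the class that Chchd4 oxidises, 3 rose in TRAP (23.1%), among them Ndufb7, a complex I subunit (log2 1.56, adjusted p = 0.000196), and 8 fell in SynapTRAP against TRAP (61.5%), among them Triap1 (log2 -1.94, adjusted p = 0.000206). In SNF 1 of the 13 rose and 2 fell. In the interaction 2 were lower (15.4%, against 0.358% of all genes). All 3 that rose in TRAP, and both that were lower in the interaction, encode respiratory chain subunits. Some of the 8 that fell in SynapTRAP against TRAP do as well. All of these subunits are counted again in that family below, so they are not a separate result.

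The 31 genes, with 14 calls in TRAP, were set beside related mitochondrial families. Among 77 tested nuclear-encoded respiratory chain subunits, 51 rose (66.2%, against 11.1% of all genes) and 0 fell in TRAP, with a median 1.08 above all genes. Among 75 mitochondrial ribosomal protein genes 22 rose (29.3%) and 0 fell (0.52 above), and among 41 Slc25 carriers 5 rose and 4 fell (12.2% and 9.76%, near the 11.1% and 10.9% of all genes; 0.04 above). In SynapTRAP against TRAP, 44, 54 and 13 of these genes fell (57.1%, 72.0% and 31.7%, against 18.1% of all genes), with medians of -0.76, -1.04 and -0.38 relative to all genes. In the same order, 0, 0 and 4 rose (9.76% of the carriers, against 21.6% of all genes). In the interaction 19 of the 77 respiratory chain genes were lower (24.7%, median -1.09 relative to all genes), as were 4 of the 31 import and CHCHD genes (12.9%, median -0.78), 0 ribosomal protein genes and 0 carriers, against 0.358% of all genes. The differences between families were not tested.

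Exon length went along with the fold changes of the 31 genes in TRAP against WCH, in SynapTRAP against TRAP and in the interaction. It was not compared between the related families. Merged exons of the 31 genes had a median length of 2684 bases, against 4630 over all tested genes. Across genes, the Spearman correlation of length with the log2 fold change in TRAP against WCH was -0.59 over the 31 genes and -0.23 over 13311 genes. For SynapTRAP against TRAP it was 0.58 and 0.22, for SNF against WCH -0.12 and 0.00, and for the interaction 0.67 and 0.26. Genes are not independent replicates, and the points share the same libraries. Among the 2663 genes with the shortest exons (57 to 2632 bases), 17.2% rose in TRAP, and 12 of the 15 import and CHCHD genes among them did. Of the same 2663 genes 28.8% were lower in SynapTRAP than in TRAP, as were 12 of these 15. In the interaction 1.39% of the 2663 were lower, and 4 of the 15 were. The part of length in the results was not tested.

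**Figure D5:**
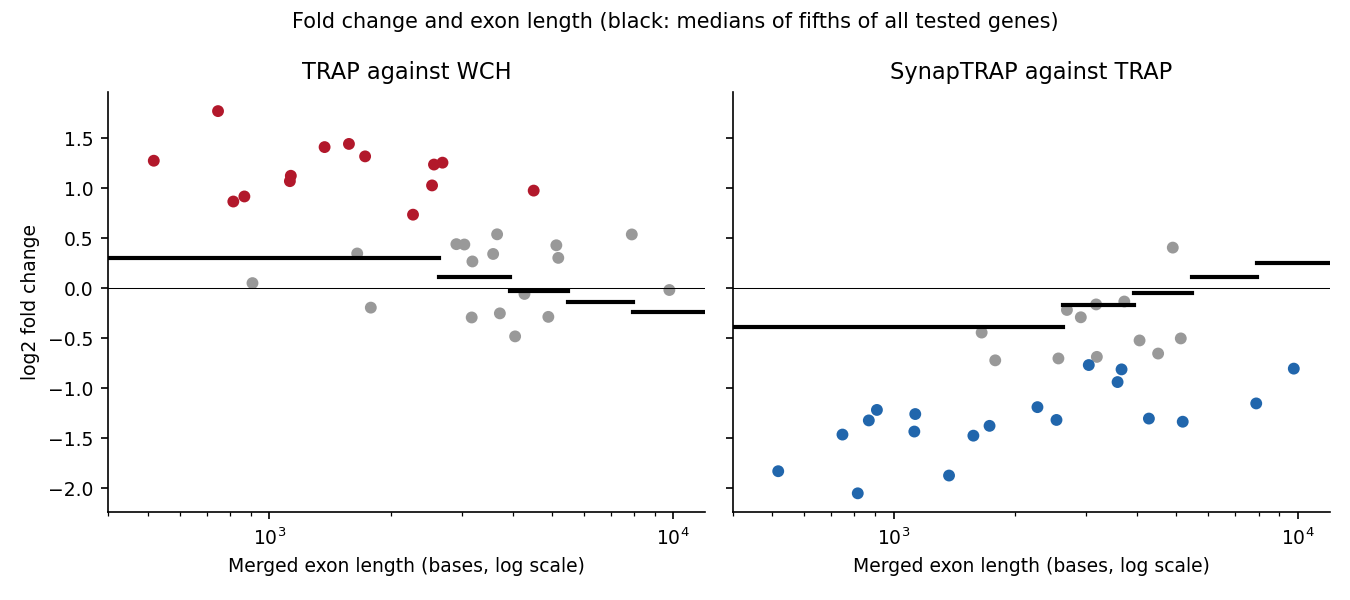
Log2 fold change (y axis) against merged exon length in bases (x axis, log scale) for the 31 genes in TRAP against WCH (left) and SynapTRAP against TRAP (right), red for higher, blue for lower and grey for not called. Black bars are the medians of 5 equal groups of all tested genes by length, 0.30 to -0.23 on the left and -0.39 to 0.25 on the right from short to long.

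Ratios of paralogs within a library do not depend on its scaling and were compared over the 4 groups for 5 pairs with an exact permutation test (two-sided, 369600 arrangements, smallest possible p = 6.49e-05). The log2 ratio of Timm10 to Timm10b was 0.03 ± 0.31 in WCH, 0.52 ± 0.27 in TRAP, -1.21 ± 0.86 in SNF, with -0.62 ± 0.29 in SynapTRAP (SD, n = 3 each; exact permutation p = 0.011, adjusted over 5 pairs 0.0549). For Timm17a to Timm17b the means were 2.76, 2.12, 2.13 and 1.61 (adjusted permutation p = 0.0727), and for Chchd3 to Chchd6 they were -0.31, -0.94, 0.03 and 0.13 (adjusted permutation p = 0.0727). Chchd2 to Chchd10 and Tomm40 to Tomm40l had adjusted permutation p of 0.188 and 0.868. No pair passed the threshold in this test. With arrangements kept within replicate numbers (replicate block), 3 pairs did: Timm10 to Timm10b (adjusted permutation p = 0.0318), Timm17a to Timm17b (0.0174) and Chchd3 to Chchd6 (0.0174). Whether the replicate numbers mark paired libraries was not shown. Without SNF replicate 2 the adjusted p of Timm10 to Timm10b was 0.000649.

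The authors' deposited table of genes enriched in SNF listed 3 of the 35 genes: Tomm20 (log2 fold change 0.72, false discovery rate 0.00385), Timm50 (1.12, 0.00597) and Romo1 (0.78, 0.0292). Their deposited table of local translation candidates did not list any of the 35 genes. Their deposited table of somatic translation candidates listed Timm10 and Timm44. For Timm10 the log2 fold change was 0.91 by TRAP (false discovery rate 0.00196) and -0.69 by column (0.0980). For Timm44 it was 0.59 by TRAP (0.0304) and -0.74 by column (0.0429). The sources used here do not state the filters and groups behind these tables.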

How the data were processed

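The 12 libraries were grouped from their titles. Per the labels' protocols, cDNA was made with a NuGEN V2 kit, and the submitters' processing notes name the tools Bowtie2, STAR, HTSeq and edgeR. The sources used here do not state versions, genome build, strand setting or read length. The authors deposited whole-number read counts per gene and library. The 5 summary lines, which held 19.3% to 58.3% of a library, were left out. The authors' deposited tables also hold log2 fold changes, likelihood ratio scores, p-values and false discovery rates, printed only where named as theirs. Gene symbols for 28842 of 29879 identifiers, coordinates and transcripts came from GENCODE M21 (GRCm38), and upstream windows from RefSeq (GRCm38.p6).

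An edgeR 4.0.16 model (R 4.3.3) held all 12 libraries, with TMM scaling, the default expression filter (13404 genes kept), robust quasi-likelihood tests and Benjamini-Hochberg adjustment over all genes tested, and adjusted p under 0.05 was a call. CPM used the same scaling. Fold changes therefore compare a gene with the bulk of expressed genes, not with cells or total RNA. The standard error (SE) printed with a fold change, also in the figures, was derived from the test. It is the absolute log2 fold change divided by the square root of the quasi-likelihood F statistic. Copies were searched with BLAST 2.17.0 in coding sequence. Alternatives were RLE and total-count scaling, scaling without mitochondrially encoded genes, no filter, DESeq2 1.42.0, a replicate block, fits of 2 groups alone and leaving out each library. The fitting code was tested on simulated data. Replicates differed by 10.7 to 321 chi-square units per gene, above counting error, so none were taken as duplicates.

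Per-library values are given for a fixed list of 16 genes, for the called gene with the largest fold change in each comparison and direction, and for others where a sentence needs them; of the other lists, at most 2 called genes per comparison are named. The members, lists and tests were chosen with earlier results of these data known. The pairing of replicate numbers was examined by correlating deviations from group means between same-numbered libraries. Replicates 1, 2 and 3 gave 0.218, 0.293 and 0.379 for SNF with SynapTRAP. For TRAP with SynapTRAP they gave 0.104, 0.144 and 0.106, and for TRAP with SNF 0.0689, 0.1015 and 0.0198. WCH pairs ranged from -0.01 to 0.17. Libraries of different numbers were not correlated, so these values cannot show whether the numbers mark pairs. Blocked values stand, as an alternative, beside the results of SynapTRAP against SNF and SynapTRAP against TRAP that they change.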

Additional observations from a re-analysis of the deposited data

Results flagged for a closer look

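In 4 genes the effect of the pull-down differed between gradient band and homogenate by the test of that difference (edgeR interaction, adjusted over all genes): Romo1 at -2.10, Chchd10 at -1.65, Timm13 at -1.60 and Timm8b at -1.56 on the log2 scale. In all 4 genes TRAP and WCH did not overlap, with TRAP higher. The SynapTRAP libraries of Romo1 and Timm8b lay below every SNF library, while those of Chchd10 and Timm13 overlapped SNF. Leaving out WCH replicate 2 or SNF replicate 1 ended all 4 calls, and in those fits 0 of all genes were called. The log2 values over all fits that left out 1 library stayed between -1.45 and -2.43. The 4 genes have short merged exons (518 to 1575 bases). Across genes the Spearman correlation of length with this difference was 0.67 over the 31 genes and 0.26 over 13311 genes, and the part of length was not tested. Lower calls in the same test were also made for 19 of 77 respiratory chain genes (24.7%). The 4 genes were 12.9% of the 31, and over all genes 0.358% were lower.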

How the results depend on the processing

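Depth limits SNF most: the median of the 31 genes was a mean of 36 counts per SNF library.

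Counts of genes called moved with these settings. Higher in SNF than in WCH (1 gene) became 2 with RLE scaling, 2 with DESeq2, 2 with the replicate block, 3 with only the 2 groups compared, 0 with no filter and 0 with total-count scaling. Lower in SNF (5) became 3 with RLE, 3 with DESeq2 and 31 with total counts. SynapTRAP against SNF (0 and 0) had 1 lower with RLE, 2 lower with DESeq2, 1 lower with the block and 29 higher with total counts. Lower in SynapTRAP than in TRAP (19) became 29 with total counts and 15 with only the 2 groups compared, which ended the calls of Timm44, Tomm34, Tomm70a and Chchd1. Over all genes, these lower calls went from 2432 of 13404 to 6403 of 13404 with total counts. With only the 2 groups compared they were 1458 of 12582. The interaction (0 higher, 4 lower) had 9 lower with DESeq2, where lower calls over all genes went from 48 of 13404 to 416 of 20380. With total counts it had 6 higher and 0 lower, where 6329 of 13404 genes were higher. Total counts include mitochondrially encoded RNA. The cause of these moves was not tested.

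With total counts Timm50, Romo1 and Tomm20 in SNF against WCH had log2 values of -1.64, -1.73 and -1.83, Tomm20 had 0.31 in TRAP against WCH and -0.53 in SynapTRAP against TRAP, and Timmdc1 had 0.77 in SynapTRAP against SNF.

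Leaving out 1 library gave 6 to 14 genes higher and 0 lower in TRAP, 0 to 2 higher and 2 to 6 lower in SNF, 0 higher and 0 to 1 lower in SynapTRAP against SNF, 0 higher and 18 to 20 lower in SynapTRAP against TRAP, and 0 higher and 0 to 6 lower for the interaction. With an arm of 2 libraries the spread was pooled over all groups. Adjusted permutation p of the paralog ratios ranged over these fits from 0.0532 to 0.172 for Timm17a/Timm17b, 0.284 to 0.955 for Tomm40/Tomm40l, 0.000649 to 0.149 for Timm10/Timm10b (lowest without SNF replicate 2), 0.0461 to 0.175 for Chchd3/Chchd6 and 0.109 to 0.489 for Chchd2/Chchd10. With permutation within the replicate block they were 0.0174 for Timm17a/Timm17b, 0.0318 for Timm10/Timm10b and 0.0174 for Chchd3/Chchd6. The replicate block also called Romo1 in SNF against WCH and Chchd6 in the interaction.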
